A study of Mus musculus with 12 samples.

Results

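The genes described here are 10 genes of fast skeletal muscle, Acta1, Ckm, Myh1, Myh4, Tnnt3, Tnni2, Mylpf, Myl1, Atp2a1 and Actn3, measured in RNA-seq libraries of mouse lumbar spinal cord. They were taken by name, from a list drawn up with earlier results of these data known, and are 10 of the 49548 genes counted. The libraries came from 8 MFN2 mice and 4 WT mice, 1 library per mouse, and the question behind the comparison was whether the mutant cords carry a transcriptomic alteration. MFN2 mice, labelled CMT2A, are of a B6;D2 background and hemizygous for Tg(Eno2-MFN2*R94Q)L51Ugfm, a human MFN2 transgene with the R94Q change, which the rat Eno2 promoter drives in neurons. WT mice are labelled C57BL/6, and the study describes them as littermates. All mice were 30 days old and none was treated.

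Skeletal muscle fibres are built from repeating sarcomeres, in which myosin motors on thick filaments pull on actin thin filaments when calcium binds troponin. Fast fibres use their own versions of these proteins, and a calcium pump of the sarcoplasmic reticulum returns the calcium so that the fibre relaxes. The spinal cord holds the motor neurons that drive muscle but no muscle fibres, and muscle lies against the vertebrae from which a cord is taken.

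Library totals ran from 19359454 counts in MFN2 library 73 to 26738930 in MFN2 library 41. Library numbers fell in 2 runs, 41 to 47 with 3 MFN2 and all 4 WT libraries, and 72 to 76 with 5 MFN2 libraries, so that no WT library stands beside the second run. The labels do not call these runs a batch. Levels are given as CPM, the read counts scaled to a common library total after TMM scaling, and as RPKM, the same per kilobase of exon, where genes are compared with each other. In whole-tissue RNA, fewer cells of a type and less RNA per cell cannot be told apart.

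Some libraries stood apart from the others. MFN2 library 43 had a summed level of 4674 CPM over 8 forebrain genes, against 108 to 207 CPM in the other 11 libraries, and the lowest summed level over 12 spinal cord genes, at 5082 CPM against 11711 to 20605 CPM. Slc6a5, the glycine transporter of inhibitory cord neurons, was nevertheless read in every library, at 76.1 CPM in library 43 and 334 to 446 CPM elsewhere. MFN2 libraries 43 and 73 carried genes of Schwann cells, the myelinating cells of nerve roots, at summed levels of 295 and 267 CPM, against 39.3 to 51.9 CPM in the others. The comparisons of the muscle genes are also given without them.

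All 10 muscle genes were read in the cord libraries at low but very unequal levels. Their summed level was 18.0, 4.13, 92.9 and 314 CPM in WT libraries 44, 45, 46 and 47. It was 15.9, 16.5 and 25.1 CPM in MFN2 libraries 41, 42 and 43, and 24.3, 355, 40.8, 31.7 and 61.0 CPM in MFN2 libraries 72 to 76. One MFN2 library, 73, and one WT library, 47, thus stood far above the rest of their own genotype, and a WT library, 45, stood below every other one. In library 73 the 10 genes took 7088 counts, 0.0366% of the library (95% Wilson interval 0.0358 to 0.0375%), and in library 45 they took 88 counts, 0.000396% (0.000321 to 0.000488%). These intervals cover counting error only. The mean sum was 71.2 ± 115 CPM in MFN2 mice (SD, n = 8) and 107 ± 143 CPM in WT mice (SD, n = 4), so that the spread within each genotype was larger than the difference between them.

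**Figure D1:**
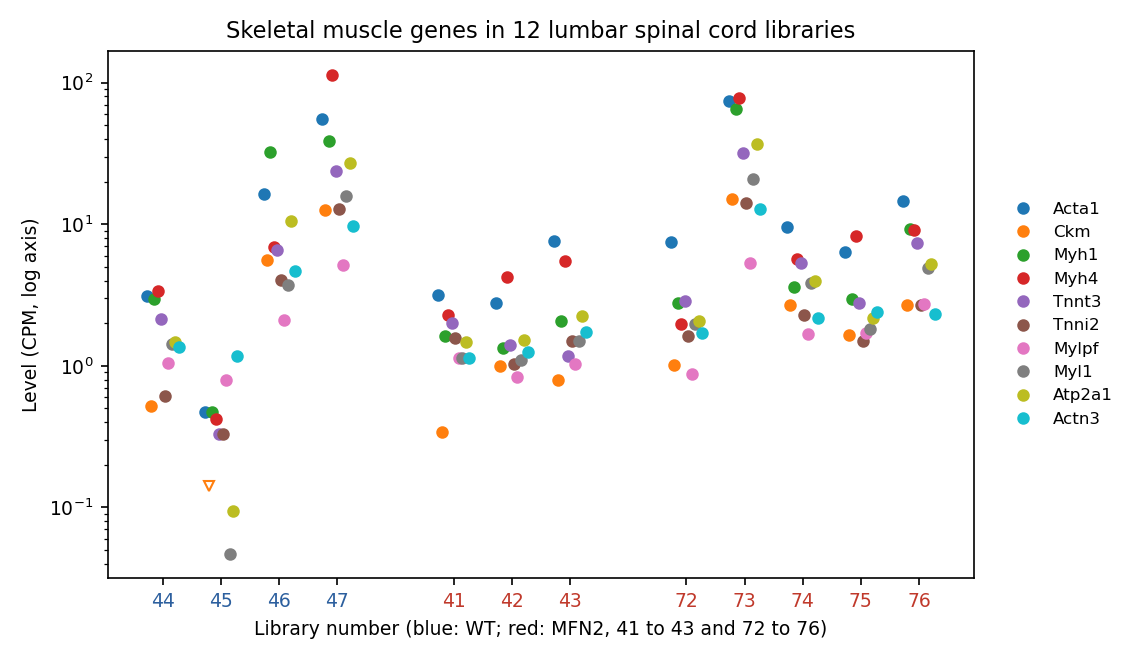
Level of each of the 10 skeletal muscle genes (CPM, log axis) in the 4 WT and 8 MFN2 libraries, by library number; each point is 1 library, and the open triangle marks Ckm at 0 counts in library 45, drawn at the level of 3 counts. Libraries 73 and 47 held the highest values of all 10 genes, and library 45 the lowest of 9 of them.

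Acta1 encodes skeletal alpha-actin, the main protein of the thin filament. In WT libraries 44 to 47 it was at 3.09, 0.470, 16.4 and 55.1 CPM. The MFN2 libraries ran from 2.78 CPM in library 42 through a median of 7.52 to 74.2 CPM in library 73. WT values therefore lay on both sides of most MFN2 values, and the genotypes overlapped. Acta1 (chr8:123891769-123894751, minus strand, GRCm38) had the highest mean RPKM of the 10 genes, 10.9, and the highest RPKM in 11 of 12 libraries, the exception being library 45, where Mylpf was highest.

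The heavy chains form the motor of the thick filament. Myh4, the myosin heavy chain of the fastest (type IIb) fibres (chr11:67238029-67260446, plus strand), was at 3.40, 0.423, 6.85 and 114 CPM in WT libraries 44 to 47. In MFN2 libraries it ran from 1.97 CPM in library 72 through a median of 5.57 to 78.2 CPM in library 73. It was the only gene of the 10 that was highest in WT library 47, and the genotypes overlapped. Myh1, the heavy chain of type IIx fibres (chr11:67200052-67224575, plus strand), was at 2.96, 0.470, 32.4 and 38.5 CPM in WT libraries 44 to 47. In MFN2 libraries it ran from 1.33 through a median of 2.87 to 65.3 CPM, again highest in library 73. WT libraries 46 and 47, close to each other in Myh1, were thus far apart in Myh4.

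The promoters of Acta1, Myh1 and Myh4 are shown because these genes were among those with the most reads in the high libraries and because the neighbouring myosin genes were read in different proportions there. The sequences are from RefSeq (GRCm38.p6) and run on the gene's strand from 250 bases before its RefSeq start to 50 after it. These starts differ from the gene coordinates given above, which are from GENCODE. The Myh4 window ends before the Myh4 start given above. Capitals mark the TATA box TATAAA, the MCAT element CATTCC, the MEF2 site and the CArG box bound by serum response factor, each searched on both strands. A MEF2 match can overlap a TATA match.
Acta1, chr8:123894726-123895025, minus strand: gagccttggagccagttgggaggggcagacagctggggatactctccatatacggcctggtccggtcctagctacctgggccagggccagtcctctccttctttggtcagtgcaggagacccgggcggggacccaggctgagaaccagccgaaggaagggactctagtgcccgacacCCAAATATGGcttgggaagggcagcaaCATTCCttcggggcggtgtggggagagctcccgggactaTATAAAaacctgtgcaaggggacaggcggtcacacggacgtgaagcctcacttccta
Myh1, chr11:67199852-67200151, plus strand: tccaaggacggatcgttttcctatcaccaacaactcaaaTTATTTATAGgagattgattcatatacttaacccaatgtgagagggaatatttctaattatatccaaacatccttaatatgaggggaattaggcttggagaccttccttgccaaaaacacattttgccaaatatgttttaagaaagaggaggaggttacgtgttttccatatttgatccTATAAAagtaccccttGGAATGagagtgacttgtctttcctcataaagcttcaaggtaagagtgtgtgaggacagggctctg
Myh4, chr11:67237562-67237861, plus strand: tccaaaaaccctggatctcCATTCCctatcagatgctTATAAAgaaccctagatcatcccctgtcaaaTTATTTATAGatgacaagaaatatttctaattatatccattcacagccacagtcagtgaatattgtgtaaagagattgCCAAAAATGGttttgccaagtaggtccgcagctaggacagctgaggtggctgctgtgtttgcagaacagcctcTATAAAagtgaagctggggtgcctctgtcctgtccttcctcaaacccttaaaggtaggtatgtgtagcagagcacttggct
Myh1 and Myh4 held the same MEF2 match, TTATTTATAG, which also contains TATAAA on the other strand, and Acta1 and Myh4 each held a CArG box. Promoters were found for 7 of the 10 genes, all but Tnnt3, Tnni2 and Actn3. A MEF2 match was in 2 of these 7 (3.187% of all 32851 promoters of this length), a CArG box in 2 (1.629%), TATAAA in 4 (13.62%), CATTCC in 4 (14.66%) and the E-box CANNTG, not in capitals, in 6 (72.31%). A match is a description of letters and not evidence of binding.

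The light chains of fast myosin followed the same libraries. Myl1, the essential light chain (chr1:66924295-66945404, minus strand), was at 1.44, 0.0470, 3.71 and 15.8 CPM in WT libraries 44 to 47. The value in library 45 was a single count. MFN2 libraries ran from 1.10 through a median of 1.89 to 20.9 CPM. Mylpf, the phosphorylatable regulatory light chain (chr7:127208890-127214298, plus strand), had the narrowest range of the 10, at 1.05, 0.799, 2.12 and 5.15 CPM in WT libraries 44 to 47. In MFN2 libraries Mylpf ran from 0.838 through a median of 1.41 to 5.35 CPM. Both genes were highest in library 73, second in library 47, and overlapped between genotypes.

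Fast troponin switches the thin filament on, with Tnnt3 encoding the subunit that holds the complex to tropomyosin and Tnni2 the inhibitory subunit. Tnnt3 (chr7:142498836-142516009, plus strand) was at 2.13, 0.329, 6.58 and 23.7 CPM in WT libraries 44 to 47. In MFN2 libraries Tnnt3 ran from 1.17 CPM in library 43 through a median of 2.81 to 31.9 CPM in library 73. Tnni2 (chr7:142441808-142444410, plus strand) was at 0.610, 0.329, 4.07 and 12.8 CPM in the same WT libraries and ran from 1.03 through a median of 1.59 to 14.2 CPM in MFN2 libraries. The WT libraries thus spanned both ends of the range for each, and the MFN2 values lay inside the WT range except for library 73. Their ratio was not fixed, with 455 Tnnt3 to 245 Tnni2 counts in library 47, 637 to 284 in library 73 and 25 to 32 in library 43.

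The remaining genes serve energy supply, calcium return and the Z-disc. Ckm, the muscle creatine kinase that regenerates ATP (chr7:19404776-19422841, plus strand), was at 0.523, 0, 5.61 and 12.5 CPM in WT libraries 44 to 47 and ran from 0.343 through a median of 1.33 to 15.2 CPM in MFN2 libraries. The 0 counts in library 45 allow a level of up to 0.141 CPM. Library 45 was the one library with no Ckm count. Atp2a1, the fast-fibre calcium pump SERCA1 (chr7:126445858-126463108, minus strand), was at 1.48, 0.0940, 10.6 and 27.2 CPM in WT libraries 44 to 47 and ran from 1.48 through a median of 2.20 to 36.7 CPM in MFN2 libraries. Actn3, the alpha-actinin that anchors thin filaments at the Z-disc of fast fibres (chr19:4861216-4877909, minus strand), was at 1.35, 1.18, 4.64 and 9.68 CPM in the same WT libraries. In MFN2 libraries Actn3 ran from 1.14 through a median of 1.95 to 12.8 CPM. Actn3 was the exception at the low end, lowest in MFN2 library 41 and not in library 45.

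Per length, the mean RPKM over the 12 libraries fell from Acta1 (10.9) through Tnnt3 (4.61), Myh4 (3.32), Tnni2 (2.46), Myl1 (2.34), Atp2a1 (2.27), Myh1 (2.14), Mylpf (1.92) and Ckm (1.26) to Actn3 (1.22). Every neighbouring pair in this order overlapped in its range over the libraries. For 6 of the 10 genes, reads could in part belong elsewhere, since some 75-base stretches of their transcripts also occur in another gene. Such stretches made up 20.9% of the Myh1 transcript windows and 9.68% of those of Myh4, shared with each other, Myh2 and Myh8 among others. For Atp2a1 the share was 15.8%, all with Rabep2, which overlaps it on the opposite strand, and for Ckm it was 8.26%, with an antisense gene. Myl1 shared 8.08% with the pseudogene Mylf-ps and Acta1 0.394% with Actb and another gene, while Tnnt3, Tnni2, Mylpf and Actn3 shared none, although Prr33 overlaps Tnnt3 on the opposite strand. The study's methods name a stranded kit, but whether strand was used in counting is not given in the sources used here.

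MFN2 mice were first compared with WT mice over all 12 libraries, with edgeR's quasi-likelihood test and Benjamini-Hochberg adjustment over 15942 genes. All 10 muscle genes passed the filter on low values, and 0 of 10 changed at an FDR of 0.05, as did 0% of all genes tested. DESeq2 called 200 genes (1.26%) and none of the 9 muscle genes to which it gave an adjusted p. It gave none to Myh4, whose log2 fold change was -2.53 by that tool. At an unadjusted p under 0.05 the count was also 0 of 10, against 15% of all genes, and 0 of 10 had levels that did not overlap between genotypes, against 2.04%. The log2 fold changes of the 10 were all below 0, with a median of -0.42 beside 0.0038 for all genes, and ran from -0.18 ± 1.01 (SE) for Myl1 to -1.11 ± 1.21 for Myh4. Each was smaller than its standard error, and the edgeR adjusted p ran from 0.652 for Myh4 to 0.940 for Myl1. The sign itself was not stable. With all 12 libraries, limma-voom put Acta1, Ckm, Myh4, Tnnt3, Tnni2, Myl1 and Atp2a1 above 0. Without WT library 47, 9 of the 10 edgeR fold changes were above 0, among them Acta1 at 1.23 and Myh4 at 2.00. The exception was Myh1, at -0.12. Without MFN2 library 73 the edgeR fold changes went the other way, to -1.35 for Acta1 and -2.47 for Myh1. Without libraries 43 and 73 these were at -1.36 and -2.40. When the model also held a term for the run, the 10 values were larger in size, from -1.17 for Mylpf to -3.47 for Myh1. The edgeR adjusted p then ran from 0.327 to 0.481. Because the second run holds no WT library, the genotype values of this model rest on the first-run libraries alone. They are therefore not estimates over all 12 libraries, and they largely repeat the comparison within the first run given below.

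**Figure D2:**
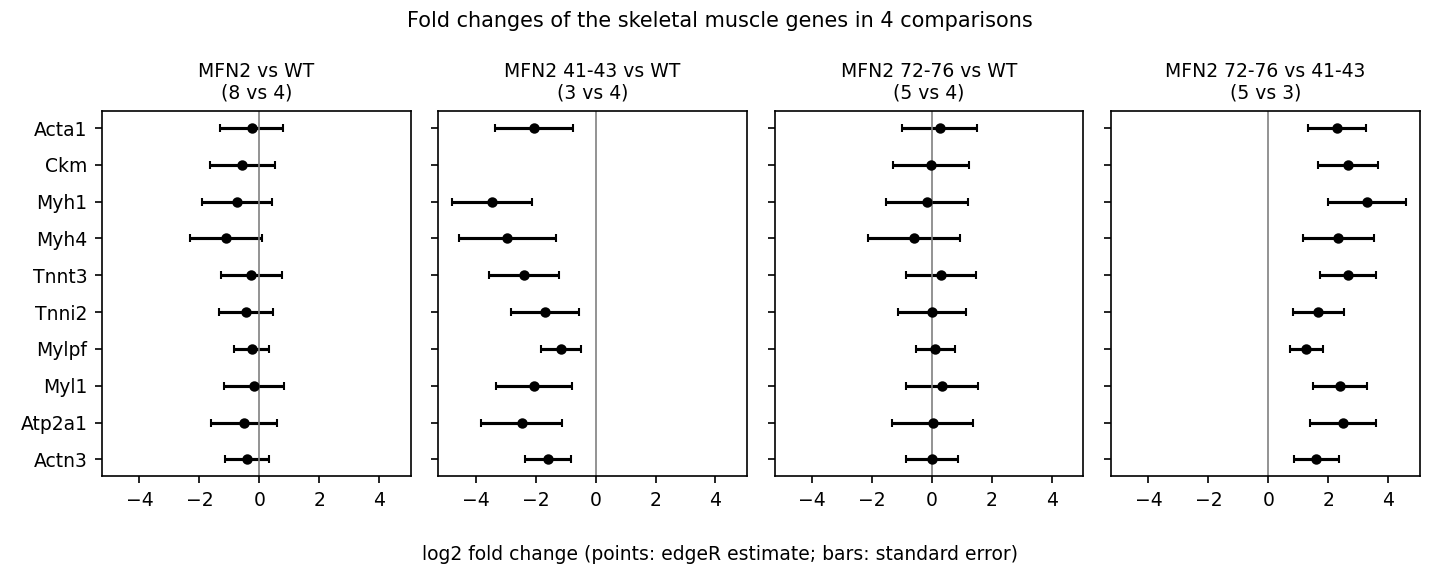
Log2 fold change of each of the 10 genes (points, edgeR estimates; bars, standard errors) in the 4 comparisons, with the number of libraries per group in each title; Ckm did not pass the filter in the second panel. The estimates run from -0.18 to -1.11 in the first panel and lie below 0 in the second, around 0 in the third and above 0 in the fourth, with standard errors from 0.550 to 1.63.

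The same comparison within the first run set MFN2 libraries 41 to 43 against the 4 WT libraries. Of the 10 genes 9 passed the filter, Ckm being the exception, and 0 of 9 changed at an FDR of 0.05 by edgeR, against 0.00658% of all genes. Only Myh1 had an unadjusted p under 0.05 (7.12% of all genes did, 1.95% of all in that direction), and no gene of the 9 had levels that did not overlap, against 8.97% of all genes. The log2 fold changes were all below 0, with a median of -2.05 and a largest size of -3.45 ± 1.33 (SE) for Myh1, whose edgeR adjusted p was 0.622. The 3 MFN2 libraries, at summed levels of 15.9 to 25.1 CPM, were close to each other and to WT library 44. The WT libraries held both the lowest and the 2 highest values of the run. Without WT library 47 Myh4 went to 0.18 and Acta1 to -0.55. Without MFN2 library 43 Acta1 was at -2.64 and Myh1 at -3.62.

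MFN2 libraries 72 to 76 were also compared with the same WT libraries, which stand in the other run. Here 3746 genes, 23.8% of all 15743 tested, changed at an FDR of 0.05 by edgeR's test, and 0 of the 10 muscle genes did (11.1% of all genes were higher and 12.7% lower). At an unadjusted p under 0.05 the count was 0 of 10, against 37.8% of all genes. None of the 10 had levels that did not overlap, against 19.8% of all genes. Their median log2 fold change was 0.017, with 7 values above and 3 below 0, and the edgeR adjusted p ran from 0.818 to 0.999. Without library 73 all 10 were below 0, Acta1 at -0.97 and Atp2a1 at -1.54, and without WT library 47 all were above 0, Myh4 at 2.51. Run and genotype cannot be told apart in this comparison.

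Within the MFN2 mice, the 5 libraries of the second run were compared with the 3 of the first. All 10 genes were higher on average in libraries 72 to 76, with a median log2 fold change of 2.36 beside -0.016 for all genes, but 0 of 10 changed at an FDR of 0.05 by edgeR, against 2.19% of all genes. Ckm passed the filter only through the second run, being over 1 CPM in 0 of 3 first-run and 5 of 5 second-run libraries, so that the counts of the other 9 are given here. At an unadjusted p under 0.05 the count was 5 of 9, against 24.6% of all genes and 10.4% of all in that direction. The levels of 3 of the 9, Myh1, Tnnt3 and Myl1, did not overlap between the runs, against 18.4% of all genes. Tnnt3 was at 2.02, 1.41 and 1.17 CPM in libraries 41 to 43 and at 2.85, 31.9, 5.34, 2.78 and 7.37 CPM in libraries 72 to 76. Its log2 fold change was 2.67 ± 0.93 (SE), with an adjusted p of 0.134 by edgeR, the lowest of the 10. Even the lowest second-run value thus exceeded the highest of the first run, although library 73 set most of the mean. Without library 73 the fold change of Tnnt3 was 1.56 and that of Acta1 1.07, from 2.29. DESeq2 gave an adjusted p to 7 of the 10. With Ckm set aside as said, it called Myh1, Tnnt3 and Myl1 higher in the second run. Their adjusted p by DESeq2 was 0.0395, 0.00655 and 0.0176. The same tool called 11.6% of all genes and 5.42% higher. It also called Ckm, which met the filter only through the second run. Without libraries 43 and 73, edgeR called 1 of the 10, Acta1, at a log2 fold change of 1.66 and an adjusted p of 0.0245, where 12% of all genes were called and 5.79% higher.

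The spread between libraries of one genotype was what set these genes apart. The SD of log2 CPM within a genotype ran from 0.966 for Mylpf to 2.23 for Myh4, against a median of 0.226 over 15942 genes, and placed the 10 between the 97.95th and the 99.84th percentile of all genes. The biological coefficient of variation that edgeR estimated was 63.8% for Mylpf and 129% for Myh4, against a median of 16.9%. Mylpf and Actn3 were the least uneven and the heavy chains and Ckm the most.

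**Figure D3:**
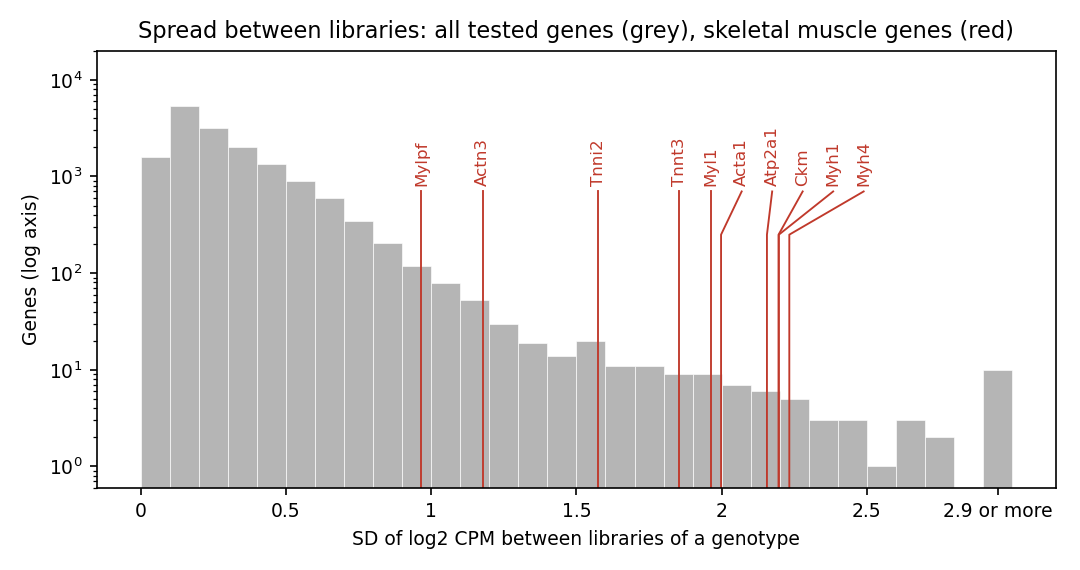
Number of genes (log axis) by their SD of log2 CPM between libraries of a genotype for all 15942 genes tested (grey bars, width 0.1, the last bar holding all higher values), with the 10 muscle genes as red lines. The muscle genes lie in the right tail, from 0.966 (Mylpf) to 2.23 (Myh4), where the median gene is at 0.226.

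The unevenness was shared. Libraries 73 and 47 held the top 2 values for 10 of 10 genes, where this was so for 1.67% of all genes tested, and library 45 the lowest for 9 of 10 (7.04% of all genes). WT library 46 came next for 6 of the 10. Relative to the median of the 12 libraries, the median gene of the 10 was at 11.2-fold in library 73, 8.38-fold in library 47, 2.36-fold in library 46 and 0.0964-fold in library 45. Over the 12 libraries, the 45 pairs of these genes had Pearson correlations of log2 CPM from 0.849 (Myl1 and Actn3) to 0.985 (Acta1 and Atp2a1), with a median of 0.932. The points share their library totals and scaling, and libraries 46, 47 and 73 lie far from the rest. Without these 3 libraries, chosen after their values were seen, the correlations over 9 libraries ran from 0.682 to 0.993, with a median of 0.854.

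The genes whose pattern was most like the mean of the 10, by Pearson correlation of log2 CPM over the 12 libraries, included, in order, Ttn (0.989), Neb (0.988), Tnnc2 (0.988), Xirp2 (0.981), Myh2 (0.979), Wdr19 (0.968), Mb (0.950), Myom2 (0.926) and Mybpc2 (0.924). All of these but Wdr19 are on a list of 38 other skeletal muscle genes, among them Ttn, the giant titin spring of the sarcomere, Neb, the nebulin of the thin filament, and Mb, the oxygen store myoglobin. Ttn went from 3.38 CPM in library 45 through 143 in library 46 and 361 in library 47 to 587 CPM in library 73. Wdr19, which encodes a transport protein of cilia, is on none of the lists used and moved over a narrow range, from 17.1 CPM in library 45 to 23.0 CPM in library 73. Of 15932 genes, 29 (0.182%) had a correlation of 0.8 or more with the mean of the 10.

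Of the 38 other skeletal muscle genes, 27 passed the filter over all 12 libraries, and their median correlation with the 10 was 0.809, beside 0.0152 for all genes. The summed level of the 38 was 235, 201, 417 and 760 CPM in WT libraries 44 to 47, 205, 214 and 183 CPM in MFN2 libraries 41 to 43, and 169, 1073, 209, 211 and 267 CPM in libraries 72 to 76. Pygm alone was 149 CPM of this sum in library 44 and 133 CPM in library 45. The sum therefore did not put library 45 lowest, although it was the lowest for 19 of the 38 genes (7.04% of all genes tested). Libraries 73, 47 and 46 were again the highest in that order, and 25 of the 38 had their top 2 values in libraries 47 and 73. The 10 of these genes with the highest mean RPKM were Pygm (33.4), Tnnc2 (6.64), Tpm2 (6.29), Jph1 (2.86), Pgam2 (1.84), Eno3 (1.79), Mybpc1 (1.69), Actn2 (1.69), Ldb3 (1.39) and Casq1 (1.28). Tnnc2, the calcium-binding subunit of fast troponin, ran from 0.0940 CPM in library 45 to 26.3 CPM in library 73. Tpm2, a tropomyosin, ran from 6.41 to 55.4 CPM and Casq1, the calcium store of fast fibres, from 0.614 to 7.51 CPM, both highest in library 73.

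Not every gene with a muscle name followed. Pygm, the muscle form of glycogen phosphorylase, was at 149, 133, 139 and 135 CPM in WT libraries 44 to 47 and between 39.5 and 116 CPM in MFN2 libraries, with a correlation of 0.058 with the 10. Jph1, a junctophilin of the muscle triad, was at 9.45 to 23.1 CPM with a correlation of -0.11. Pgam2, Actn2 and Jph1 were highest in MFN2 library 43, at 7.54, 16.9 and 23.1 CPM, the library high in forebrain genes. Library 43 was the highest for 5 of the 38, or 13.2%, and for 25.9% of all genes tested. Of those of the 38 that passed the filter on low values, Pygm alone passed an FDR of 0.05 by edgeR in any of the 4 comparisons, lower in libraries 72 to 76 than in WT at a log2 fold change of -0.58 ± 0.07 (SE) and an adjusted p of 0.000428, where 12.7% of all genes were lower. With no filter, edgeR also called Actn2 higher (adjusted p 0.00047, 5.18% of all genes higher) and Ldb3 (0.0330) and Jph1 (0.0380) lower in that comparison (5.85% lower), and Jph1 lower in the second MFN2 run than in the first (0.0277, 0.474% lower).

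Genes of other muscle types had lower median correlations with the 10 than the 0.809 of the other skeletal muscle genes. The medians were 0.241 for 5 slow-fibre, -0.068 for 2 developmental, 0.229 for 3 cardiac and 0.127 for 4 smooth muscle genes that were tested. They rest on few genes, which ran from -0.023 to 0.817 for slow-fibre and from -0.133 to 0.921 for smooth muscle. The 7 genes of slow fibres summed to 24.3 to 58.3 CPM, highest in library 73, then in libraries 47 and 46. Myh7, the slow and cardiac heavy chain, had the most reads of them, at 12.5 to 35.6 CPM. Among the slow-fibre genes Tnnt1, slow troponin T, had a correlation of 0.817 with the 10 and Tnni1, slow troponin I, one of -0.023. Of the 5 slow-fibre genes tested, 1, Tnni1, fell in libraries 72 to 76 against WT (log2 fold change -0.74 ± 0.22 SE, edgeR adjusted p 0.0323), where 12.7% of all genes were lower. The 5 developmental muscle genes summed to 2.23 to 14.1 CPM, highest in library 43, with Myl4 the gene with the most reads. Myh8, the perinatal heavy chain, was at 0.0877 to 1.74 CPM, and Actc1, cardiac alpha-actin, at no more than 0.550 CPM. The 6 cardiac genes summed to 360 to 482 CPM, nearly all from Ryr2, a calcium release channel that neurons also use. Smooth muscle genes summed to 8.71 to 27.0 CPM with Myh11, the smooth muscle heavy chain, the highest on average. Des, which encodes desmin, is on this list and on that of skeletal muscle, and was highest in libraries 47 and 73, at 6.97 and 11.6 CPM. Without Des the smooth muscle genes summed to 19.99 CPM in library 47 and 13.6 CPM in library 73, against 21.5 CPM in library 45, the highest. Acta2, smooth muscle alpha-actin, was at 4.37 CPM in library 47 and 1.75 CPM in library 73.

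Genes of muscle progenitors, and all but 1 of those of the muscle side of the synapse, were at low levels. None of 6 regulators of muscle formation passed the filter, and Myod1, Myf5, Myf6 and Myog, the factors that set the muscle lineage, were each at 0.300 CPM or less in every library. The summed level of the 6 was 0.188 to 1.30 CPM, highest in library 73, with Pax7 the highest on average, which also marks dorsal progenitors of the nervous system. Of 6 genes of the neuromuscular junction, 1, Dok7, passed the filter, at 9.92 to 22.3 CPM. The 4 acetylcholine receptor subunits on this list, Chrna1, Chrnb1, Chrnd and Chrne, were each at 0.609 CPM or less. Chrng, a subunit on the developmental list, was at 0.102 CPM or less.

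The proportion of the fast heavy chains differed between the libraries with the most muscle gene reads. Of the counts of Myh1, Myh2 and Myh4 together, Myh4 took 66.3% in WT library 47 (95% Wilson interval 64.7 to 67.9%, 3296 counts), 42.4% in MFN2 library 73 (40.8 to 43.98%, 3688 counts) and 14.6% in WT library 46 (12.6 to 16.8%, 1064 counts). In library 46 Myh1 took 68.8%, against 22.4% in library 47 and 35.4% in library 73. The 3 intervals of Myh4 do not overlap, but they cover counting error only and each library is 1 mouse. In the other 9 libraries the Myh4 share ran from 30.0 to 62.8%, the 34.6% of library 45 resting on 26 counts. The count ratio of Myh4 to Myh1 was 2.96 in library 47, 1.20 in library 73 and 0.212 in library 46. Part of these transcripts cannot be told apart by 75-base reads, as given above.

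**Figure D4:**
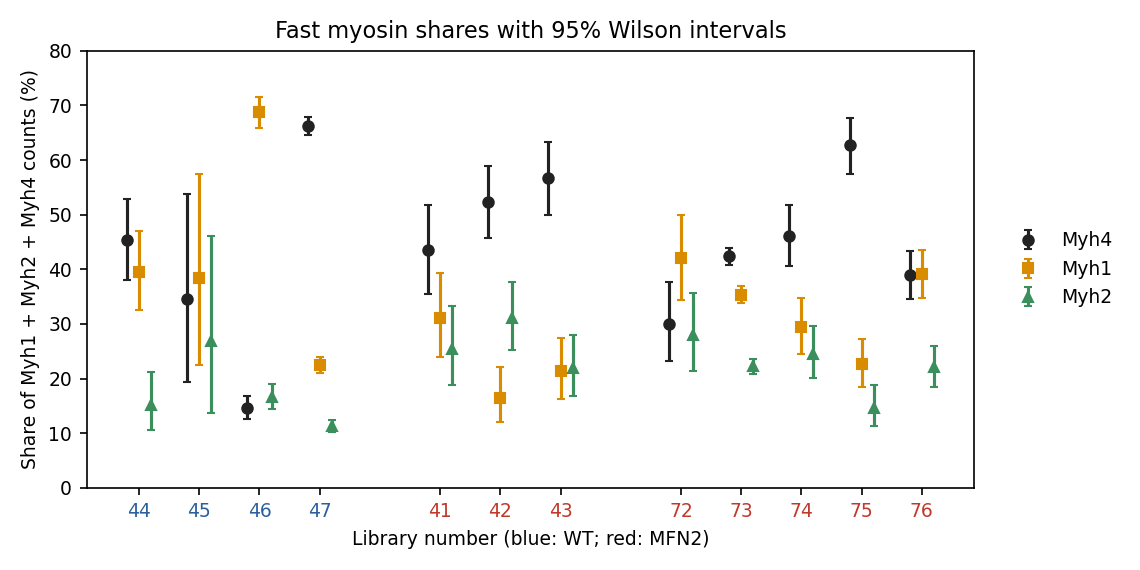
Share (%) of the summed counts of Myh1, Myh2 and Myh4 that each gene took, by library (points; bars, 95% Wilson intervals for counting error). Myh4 took 66.3% in WT library 47 and 14.6% in WT library 46, where Myh1 took 68.8%, and library 45 has the widest bars because it holds 26 counts.

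Genes of other tissues around the cord were set beside the muscle genes library by library. The 6 genes of adipose tissue summed to 22.6 CPM in library 73, 19.1 CPM in library 46 and 13.9 CPM in library 47, the same 3 libraries that were highest for muscle, and to 1.81 to 11.6 CPM in the other 9. The highest on average was Car3, which skeletal muscle also expresses, and the adipocyte hormone gene Lep was at 0 in 6 libraries. Car3 made up most of the sums of libraries 47 and 73, at 10.05 and 12.2 CPM. Each of the other adipose genes was lower in library 47 than in MFN2 library 41, with Fabp4 at 2.91 and 5.82 CPM. The place of library 47 among the 3 highest thus rested on Car3. Adipoq, Cfd and Lep were highest in library 73, at 0.701, 1.55 and 0.350 CPM. Plin1 and Fabp4 were highest in library 46, at 1.33 and 8.22 CPM, and second in library 73. Blood genes summed to 332 CPM in library 73 and 67.9 CPM in library 45, the highest and the lowest of the 12, and to 146 CPM in library 47, within the 102 to 202 CPM of the others, with Hbb-bs, a beta-globin, the highest on average. Connective tissue genes, led by Col1a1, a chain of type I collagen, summed to 112 CPM in library 45, the lowest, and to 397 CPM in library 73, but the highest value, 474 CPM, was in WT library 44, which was low for muscle. The part that any of these tissues had in the muscle gene levels was not tested.

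Schwann cell genes separated the 2 highest muscle libraries, at a summed level of 267 CPM in MFN2 library 73 and 44.9 CPM in WT library 47. MFN2 library 43, at 295 CPM, was not high in muscle genes. Drp2, with the most reads of the 6, was at 37.3 to 57.6 CPM in all libraries but 43, where it was at 90.6 CPM. Among bone and cartilage genes the summed level ran from 6.88 to 20.7 CPM, led by Col2a1, the collagen of cartilage, and was highest in library 76. The 6 sensory ganglion genes, led by Prph, a neurofilament protein that motor neurons share, summed to 138 CPM in library 47, the highest, and 74.4 CPM in library 73, while Mrgprd, a receptor of sensory neurons alone, was at 0 in 7 libraries.

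**Figure D5:**
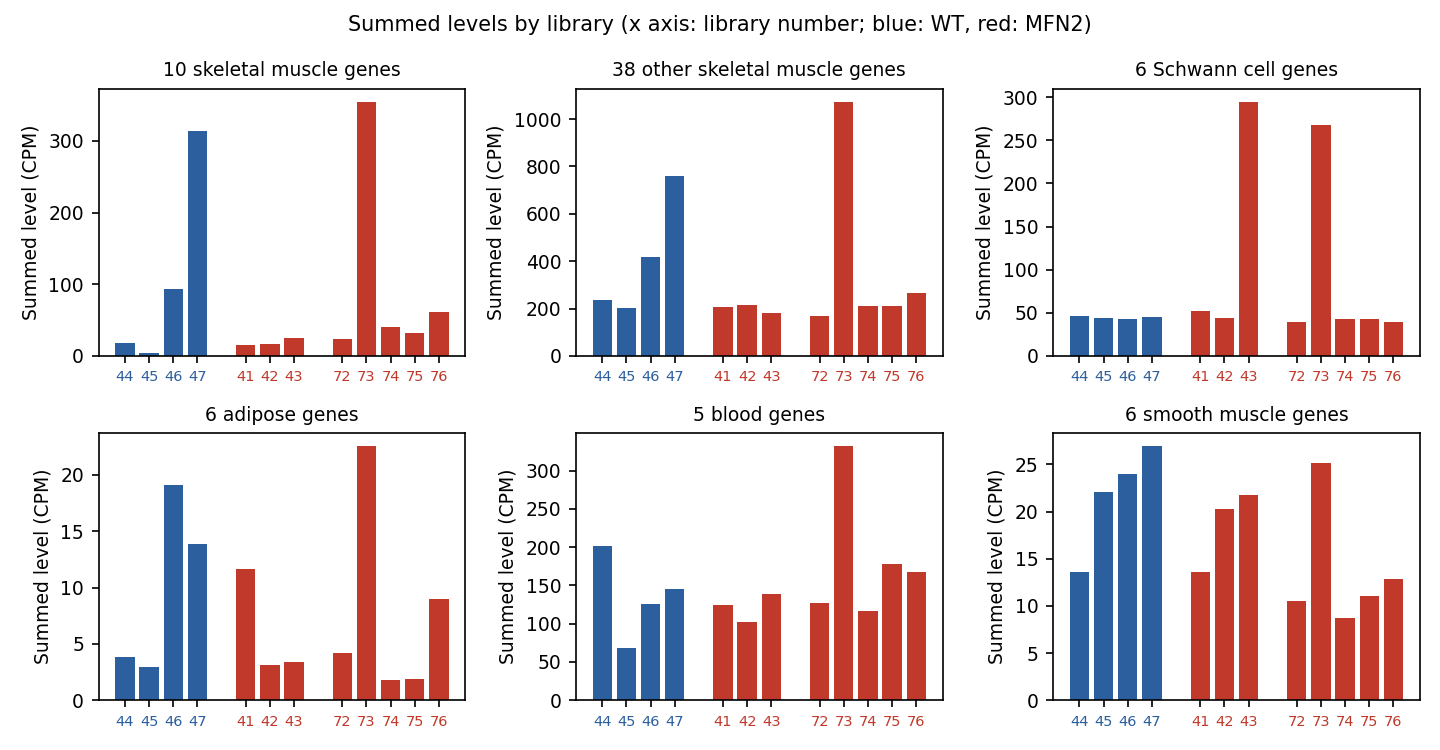
Summed level (CPM, linear axes from 0) of the 10 skeletal muscle genes, 38 other skeletal muscle genes and 4 lists of other tissues in each library, 1 bar per library (blue, WT; red, MFN2). Libraries 47 and 73 stand out in both muscle panels, and libraries 43 and 73 in the Schwann cell panel. Libraries 46, 47 and 73 are the highest in the adipose panel, library 47 only through Car3, which skeletal muscle also expresses.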

How the data were processed

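Lumbar spinal cord RNA of 8 MFN2 and 4 WT mice (RNeasy extraction, a SMARTer kit, stranded by the study's methods, poly(A) sequencing, paired-end 75-base reads on an Illumina NextSeq) was trimmed and aligned with STAR to GRCm38.p6 by the study's authors, per the labels and methods. The deposited files hold raw read counts per Ensembl gene for 49548 genes, of which 259 had no symbol in the annotation used here. The counting program and its strand setting are not given in the sources used here. The replicates are separate mice.

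From these counts, TMM-scaled CPM, RPKM (union of annotated exons) and log2 CPM (prior count 2) were computed. Genes above 1 CPM in at least 3 libraries of a fit were tested with edgeR 4.0.16 (legacy quasi-likelihood test, robust) in R 4.3.3, with Benjamini-Hochberg adjustment over all genes tested and an FDR of 0.05. The 4 comparisons were MFN2 against WT, each run of MFN2 library numbers against WT, and the MFN2 runs against each other. Alternatives were other filters, scalings, DESeq2 1.42.0, limma-voom 3.58.1, edgeR's newer quasi-likelihood test, the run as a term and leaving out libraries. The test was tested on simulated data.

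The genes named are the 10 muscle genes, the 10 other skeletal muscle genes with the highest mean RPKM, the gene with the highest mean CPM of each of the other lists, paralogs, the 10 genes with the highest Pearson correlation with the mean of the 10, and, for the slow-fibre, developmental, regulator and junction lists, genes behind counts of 5 or fewer. Des, Slc6a5, the adipose genes other than Car3, Mrgprd, Myh6, Tnnc1, the receptor subunits and the factors of muscle formation were chosen after their values were seen. Some genes that meet these rules are not reported here. The members and lists were chosen with earlier results of these data known. Correlations are descriptions over 12 libraries. Promoters are from RefSeq. Transcript sharing was counted over 75-base windows of GENCODE transcripts.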

Additional observations from a re-analysis of the deposited data

Results flagged for a closer look

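A library was singled out where its gap to the nearest other library of its genotype, divided by the range of the genotype, exceeded Dixon's 95% critical value for 8 MFN2 or 4 WT libraries. Of 52 groups tested, 18 did so, where about 2.6 (1 in 20) would by chance if the values were normally distributed. CPM was used without taking logs, so that the 2.6 is a rough guide only. The 10 muscle genes share their libraries, so their counts are not independent. MFN2 library 73 was far above the other MFN2 libraries for each of the 10 genes, with a gap of 0.835 of the range for Acta1, 0.841 for Ckm, 0.877 for Myh1, 0.906 for Myh4 and 0.798 for Tnnt3. The gap was 0.874 for Tnni2, 0.578 for Mylpf, 0.806 for Myl1, 0.894 for Atp2a1 and 0.892 for Actn3. The same library was far above the others in the summed level of the 10 genes (0.867), of the 38 other skeletal muscle genes (0.891), of blood genes (0.671) and of adipose genes (0.526). WT library 47 was far above the other 3 WT libraries in Myh4 (0.943). MFN2 library 43 was high in the sums of the developmental muscle genes (0.877) and forebrain genes (0.985) and low in that of the neuromuscular junction genes (0.581).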

How the results depend on the processing

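The count of muscle genes called at an FDR of 0.05 was 0 under all alternatives run for the 3 comparisons with WT. Between the MFN2 runs DESeq2 called Myh1, Tnnt3 and Myl1 (11.6% of all genes called). It also called Ckm, which passed the filter only through the second run. Without libraries 43 and 73 the count between the MFN2 runs was 1 (12%), and under the others it was 0. Leaving out libraries 43 and 73 was chosen after seeing the data (as were Myh6 without library 73 and the smooth muscle sum without Des). The 10 genes most like the muscle genes kept 6 of their number with Spearman's rho and 8 to 10 when each library was left out.

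Signs were unstable in comparisons where each edgeR fold change was smaller than its standard error. For all 12 libraries, limma-voom gave log2 fold changes above 0 for Acta1 (0.49), Ckm (0.74), Myh4 (0.18), Tnnt3 (0.14), Tnni2 (0.26), Myl1 (0.75) and Atp2a1 (0.32). For libraries 72 to 76 against WT, turned values were Tnni2 -0.014, Atp2a1 -0.00041 and Actn3 -0.0027 without a filter, Tnni2 -0.0019 with filterByExpr and -0.00085 with the newer edgeR test, Ckm 0.058 with library size only and 0.014 with upper-quartile scaling, and, with limma-voom, Ckm 1.53, Myh1 0.031 and Myh4 0.68. The cause was not tested.

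Leaving out each library in turn, the log2 fold change over all 12 libraries ran from -1.35 to 1.23 for Acta1, -1.68 to 0.61 for Ckm, -2.55 to 2.00 for Myh4, -1.32 to 1.17 for Tnnt3, -1.34 to 0.97 for Tnni2, -0.66 to 0.52 for Mylpf, -1.17 to 1.40 for Myl1, -1.88 to 0.76 for Atp2a1 and -1.20 to 0.40 for Actn3, above 0 only without WT library 47. For libraries 41 to 43 against WT, Myh4 ran from -3.35 to 0.18. For libraries 72 to 76 against WT the ranges were -0.97 to 1.73 for Acta1, -1.20 to 1.16 for Ckm, -2.02 to 0.47 for Myh1, -2.30 to 2.51 for Myh4, -0.83 to 1.71 for Tnnt3, -1.11 to 1.40 for Tnni2, -0.37 to 0.88 for Mylpf, -0.73 to 1.92 for Myl1, -1.54 to 1.28 for Atp2a1 and -0.95 to 0.82 for Actn3. Between the MFN2 runs all 80 such values stayed above 0.

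Over all genes, the count called for all 12 libraries was 0 with edgeR, 200 with DESeq2, 19 without library 43, 7 without 41, 1 without 76 and 4 without 43 and 73. For libraries 41 to 43 against WT it was 1, and 0 to 5 elsewhere. It fell from 3746 to 2350 without WT library 45 for libraries 72 to 76 against WT. Between the MFN2 runs it was 342, 1795 with DESeq2, 1831 without 43 and 73, and 31 to 2375 leaving out 1 library.

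No paired analysis was possible because the genotypes share no library number. Several muscle genes rest on fewer than 50 counts in most libraries. Run and genotype cannot be told apart for libraries 72 to 76.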

Other observations

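Among the cardiac genes, Myh6, the heart's alpha heavy chain, did not follow the 10 skeletal genes in the WT libraries. It was at 0.348, 0.188, 0.442 and 0.312 CPM in WT libraries 44 to 47 and at 0.190, 0.267 and 2.95 CPM in MFN2 libraries 41 to 43. In MFN2 libraries 72 to 76 it was at 2.10, 9.41, 1.36, 1.24 and 2.09 CPM, so that all 5 lay above all 4 WT libraries, with library 73 again the highest. Levels did not overlap for 19.8% of all genes tested in this comparison. The log2 fold change of Myh6 against WT was 3.28 ± 0.77 (SE, edgeR), and 2.36 ± 0.33 without library 73. Myh6 passed the filter only through the second run, being over 1 CPM in 5 of 5 of these libraries and 0 of 4 WT libraries, so that no test of it is given. Run and genotype cannot be told apart here.

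MFN2 library 43 was the highest of the 12 for 25.9% of all genes tested and for 0 of the 10 muscle genes, 5 of the 38 other skeletal muscle genes and 1 of the 7 slow-fibre genes. That 1, Tnnc1, the slow and cardiac troponin C, was at 9.27 CPM there, against a median of 1.52 CPM over the 12 libraries, while Myl4, an atrial and embryonic light chain, was at 9.36 CPM against a median of 1.51 CPM. The forebrain genes had their highest summed level in the same library.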
